A study of Homo sapiens with 6 samples.

Results

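The mRNAs described here encode the proteins of the mitochondrial ribosome, and the values are counts of RNA cross-linked to the translation initiation factor eIF4B. Members were taken by name, as protein-coding genes of GENCODE release 44 that are called MRPL or MRPS followed by a number and at most 1 letter. This gave 78 genes, 49 with an MRPL name, given to proteins of the large subunit, and 29 with an MRPS name, given to those of the small subunit with a few exceptions, of 13160 protein-coding genes with a count in either cell line. All 78 had a count in DoHH-2 and 76 had one in GM01953.

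eIF4B iCLIP had been carried out in DoHH-2, an established cell line from a diffuse large B-cell lymphoma, and GM01953, a B-cell line used as the disease-free control. In iCLIP, cells are irradiated with UVC light, the protein is immunoprecipitated with the RNA attached to it, and reverse transcription stops at the cross-linked nucleotide, so each cDNA marks a position. The labels give the same protocol for both lines and name no treatment besides UVC. There are 4 DoHH-2 replicates and 2 of GM01953 in the labels, but the authors deposited their sums over replicates, so no value has an SD and no difference between the lines could be tested. The lines are not isogenic and each stands for 1 donor, so a difference between them cannot be told apart from a difference between these cultures.

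Human mitochondria keep their own ribosomes to translate the few proteins of the mitochondrial genome, which are subunits of the respiratory chain and of ATP synthase. The ribosomal RNAs are made inside the organelle, whereas all of its ribosomal proteins are encoded in the nucleus, translated in the cytosol from ordinary capped mRNAs and then imported, most of them by means of an N-terminal targeting sequence. Many have a counterpart in bacterial ribosomes and others were acquired during the evolution of mitochondria. eIF4B is a cofactor of the helicase eIF4A, which unwinds the 5′ UTR of cytosolic mRNAs so that the small ribosomal subunit can reach the start codon.

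In DoHH-2 there were 2033156 cDNA counts at 1179243 positions. GM01953 had 167197 counts at 78474 positions, so DoHH-2 was 12.2 times as deep. Of 7 B-cell marker genes, 6 had a count in DoHH-2 (1807 counts in all) and 7 in GM01953 (664 counts). CD22 had no count in DoHH-2 and 27 in GM01953, and MS4A1 had 13 and 152. The other B-cell markers had more counts in DoHH-2, the deeper line, where CD74 (1023) and PAX5 (554) held most of the sum. The T-cell markers had 1 and 0 counts in all, and the myeloid and fibroblast markers had none in either line.

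The members took up 0.462% of all counts in DoHH-2 (9384 counts at 6723 positions, Wilson 95% interval 0.452 to 0.471%) and 0.478% in GM01953 (799 counts at 433 positions, 0.446 to 0.512%). In counts per 1000000 counts of the same table (CPM), the ratio of DoHH-2 to GM01953 was 0.966, with an exact conditional 95% interval of 0.898 to 1.04 that includes 1. All intervals here cover counting error only and not the spread between replicates. The ratio was 0.991 for MRPL names and 0.933 for MRPS names, or 0.941 without MRPS30, MRPS18A and MRPS36, which are not proteins of the small subunit. Among 47 members with a bacterial counterpart the ratio was 0.963, and among the 31 without one it was 0.971. These tables hold no measure of total mRNA, so more binding per mRNA and more mRNA cannot be told apart at any member.

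A member had a median of 106 counts in DoHH-2 (quartiles 69.75 and 159.75, range 5 to 293), against a median of 51 over all 13160 protein-coding genes. In GM01953 the medians were 8.5 and 4 counts. The medians of counts over all genes, here and per kb, include genes without a count in the line. Of the 13160 genes, 12661 had a count in DoHH-2 and 9747 in GM01953. The member mRNAs are short, with a median length of 1242 nt against 3364.5 nt over all genes. Per kb of the MANE Select mRNA, the reference transcript of each gene, the median member had 75.1 counts in DoHH-2 against 8.84 over all genes, and 5.51 against 0.554 in GM01953. Neither mRNA length (Spearman's rho 0.025) nor CDS length (rho 0.082) went along with the count on the mRNA across the 78 members in DoHH-2. Across the same members, counts per kb in both lines gave Pearson's r of 0.689 and rho of 0.728. This is a description over genes that share 2 pooled tables and a common mRNA length.

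A gene was called bound when its positions with an FDR below 0.05 held more than 20 counts. The authors instead required enrichment in iCLIP over total RNA, which this count limit does not measure. Bound here therefore does not separate more binding per mRNA from more mRNA. In DoHH-2, 61 of 78 members (78.2%) were bound, against 32.9% of the 12661 protein-coding genes with a count. In GM01953 only 2 of 76 were, MRPS28 with 30 such counts and MRPS6 with 22, against 8.35% of 9747 genes. The limit is a fixed number of counts, while DoHH-2 was 12.2 times as deep and the median member had 8.5 counts in GM01953. The numbers bound in the 2 lines can therefore not be compared with each other. Of all their GM01953 counts, MRPS28 had 31 of 31 on its mRNA and MRPS6 had 10 of 29.

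**Figure D1:**
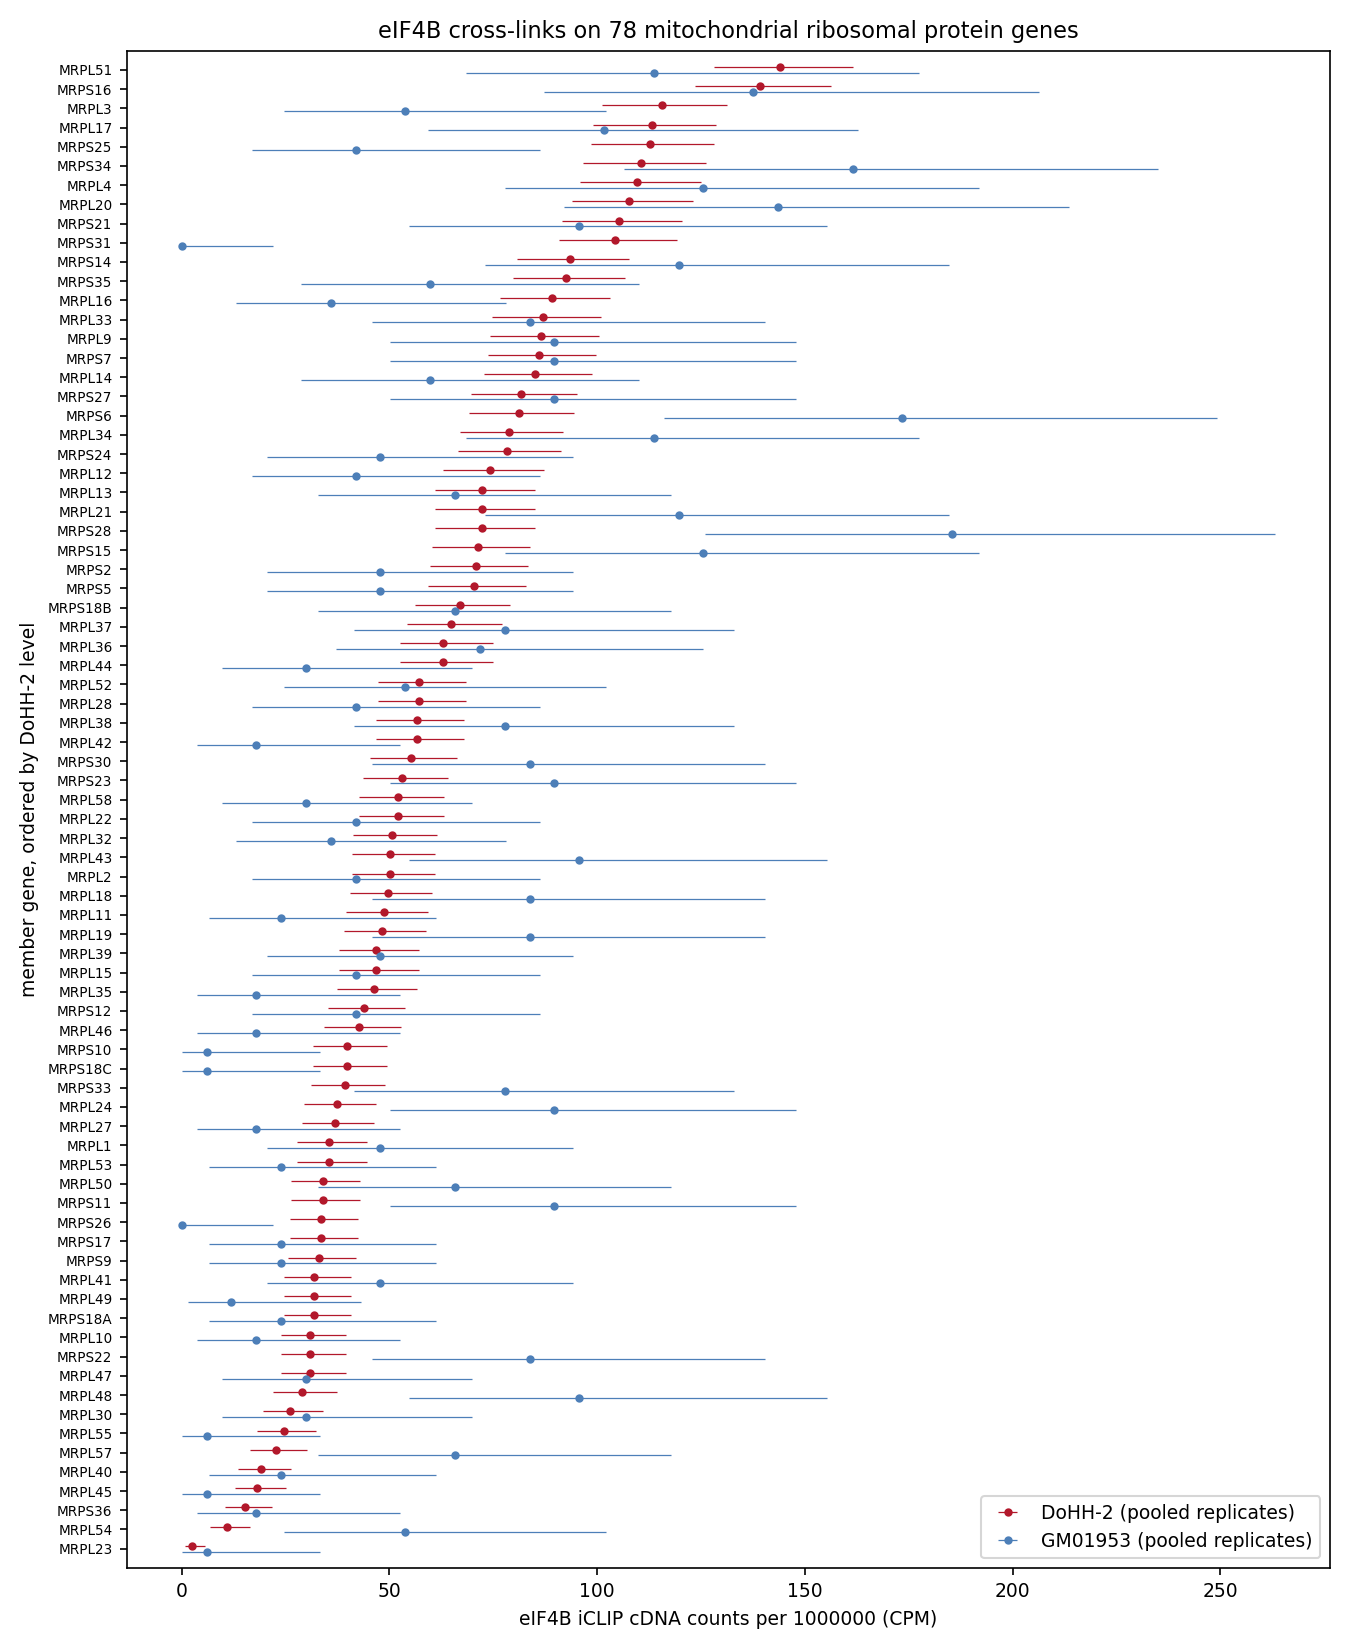
eIF4B iCLIP cDNA CPM (x axis, linear) of the 78 members (y axis, ordered by the DoHH-2 level), in DoHH-2 (red) and GM01953 (blue). Each point is 1 pooled table and each bar its exact Poisson 95% interval. DoHH-2 values run from 2.46 (MRPL23) to 144 (MRPL51), the blue intervals are wide, and MRPS31 is at 104 in DoHH-2 and at 0 in GM01953.

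The members with the most counts were spread over both subunits. MRPL51, a large subunit protein without a bacterial counterpart, was the highest in DoHH-2 with 293 counts (144 CPM), and it had 19 in GM01953 (114 CPM). MRPS16, the small subunit protein bS16m, had 283 DoHH-2 counts and 23 GM01953 counts (139 and 138 CPM). The exact Poisson intervals of these 2 in DoHH-2, 260 to 329 and 251 to 318 counts, overlap, so their order is not set by the data. The next by DoHH-2 count were MRPL3 (235), MRPL17 (230), MRPS25 (229), MRPS34 (225), MRPL4 (223), MRPL20 (219), MRPS21 (214) and MRPS31 (212), which lie within counting error of their neighbours. Together the 10 held 25.2% of the members' counts in DoHH-2.

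In GM01953 the order began with MRPS28 (31 counts), MRPS6 (29), MRPS34 (27), MRPL20 (24), MRPS16 (23), MRPL4 and MRPS15 (21 each), MRPL21 and MRPS14 (20 each) and MRPL34 and MRPL51 (19 each). At that depth each of these values overlaps the others, for instance MRPS6 with an interval of 19.4 to 41.6 and MRPL51 with 11.4 to 29.7. Per kb of mRNA, MRPL51 (298 counts per kb), MRPL20 (284) and MRPL33 (274) led in DoHH-2. In GM01953 MRPS28 was the highest per kb (37.0), followed by MRPL20, and MRPL21 came after them with 24.5. MRPL20, MRPL21, MRPL33 and MRPL36 are among the members with a bacterial counterpart.

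The lowest counts in DoHH-2 belonged to MRPL23 (5 counts, 1 in GM01953), MRPL54 (22 and 9) and MRPS36 (31 and 3). MRPL23 is uL23m, which lines the exit of the peptide tunnel in ribosomes. MRPS36 was named as a ribosomal protein but has since been assigned to the 2-oxoglutarate dehydrogenase complex. MRPL54 was low in DoHH-2 and not in GM01953, at 10.8 and 53.8 CPM, with 6 of its 9 GM01953 counts at 1 position.

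Of the members' counts, 88.9% in DoHH-2 and 90.1% in GM01953 lay on the exons of the MANE Select mRNA, against 75.7% and 74.9% for other protein-coding genes, histone genes left out. The rest fell in introns and other exons. In DoHH-2, 12 members had more than 20 counts off the mRNA, MRPS25 (61), MRPS21 (52) and MRPS5 (48) among them. MRPS6 (bS6m) had 88 of 165 off its mRNA in DoHH-2, the only member there with more counts off than on it. In GM01953 it had 19 of 29, and MRPL38 had 7 of 13. Nearly all of its counts (164 and 29) were also listed under another gene that overlaps it, so its level is uncertain. Positions of MRPL12, MRPL30, MRPL38, MRPL53, MRPS17 and MRPS24 were likewise shared almost wholly with an overlapping gene, as were 125 of the 147 DoHH-2 counts of MRPS28. A pseudogene with the symbol of the member is annotated for 36 of the 78, and how reads that map to several places were treated is not given in the sources used here, so those counts may be too low or hold pseudogene reads.

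The mRNA was divided into the 5′ UTR, the start codon, the CDS, the stop codon and the 3′ UTR, where the codon regions reach 50 nt to each side. In the members 5.31% of DoHH-2 mRNA counts fell in the 5′ UTR, 18.7% at the start codon, 45.0% in the CDS, 10.1% at the stop codon and 21.0% in the remaining 3′ UTR. Other protein-coding genes had 8.37%, 9.05%, 44.2%, 5.36% and 33.0%. The members thus had a larger share around both codons and a smaller share in both UTRs, and the Wilson intervals do not meet (17.8 to 19.5% at the start codon of members, 8.99 to 9.10% of others). The 5′ UTR share of the members depends on the transcript chosen, and on the longest coding transcript of each gene it was 8.01% in DoHH-2 and 5.07% in GM01953. GM01953 gave the same order between members and others at the start codon (23.2% and 12.4%), at the stop codon (8.61% and 5.65%) and in the 5′ UTR (3.06% and 13.7%), whereas in the 3′ UTR the member interval of 17.4 to 23.2% reached the 23.2% of other genes.

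Region lengths differ between the members and other genes. The median 5′ UTR of a member is 30.5 nt against 140 nt over all genes, the median CDS 588 nt against 1434 nt and the median 3′ UTR 464.5 nt against 1303 nt. In 47 members the 5′ UTR is under 50 nt, so it lies wholly within the start codon region. The start codon region makes up 4.50% of the members' mRNA and 2.32% of that of other genes. Set against the mean density of the whole mRNA, the members' start codon density was 4.15 times as high, close to the 3.89 times of other genes, and in GM01953 it was 5.15 against 5.33 times. The stop codon was at 1.85 times in the members and 2.23 times in others, and the 3′ UTR at 0.356 and 0.696 times. On this scale the 5′ UTR was at 4.77 times in the members and 2.17 times in others, and the CDS at 1.5 and 1.01 times. In GM01953 the 5′ UTR was at 2.75 and 3.56 times, the reverse order. These ratios use summed lengths, and the member mRNAs sum to 143030 nt. MRPL42 (15557 nt, 96 DoHH-2 mRNA counts) and MRPL19 (7825 nt, 88) add long 3′ UTRs with few counts. How far such mRNAs set the members' ratios and 3′ UTR counts per kb was not tested. Lengths of other genes are summed over 13012 genes with a count in either line, including genes without one in the line shown. Without codon regions, the whole 5′ UTR held 13.4% of the members' DoHH-2 counts and 12.9% of those of others, and in GM01953 12.9% and 19.7%.

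In counts per kb the members were above other genes in each region in DoHH-2, with 278 against 43.1 in the 5′ UTR, 242 against 77.1 at the start codon, 87.4 against 19.9 in the CDS, 108 against 44.1 at the stop codon and 20.8 against 13.8 beyond it, in the 3′ UTR. Along the mRNA the member density was highest in the 25 nt before the start codon (300 counts per kb). It was 249 in the first 25 nt of the CDS, 206 in the next 25 nt and 86.2 between 200 and 249 nt. Other genes fell from 79.7 before the start codon to 37.9 over the same stretch.

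Each of the 76 members with more than 20 mRNA counts in DoHH-2 was given a dominant region where 1 region held at least 50% of the summed densities, with no density for a region under 10 nt. The start codon was dominant in 29 (38.2%) against 18.3% of 7597 protein-coding genes, the 5′ UTR in 4 against 11.7%, the stop codon in 3 against 4.34%, and the CDS and 3′ UTR in none against 1.92% and 3.21%. The other 40 members had no dominant region. A short 5′ UTR leaves this region without a density, as in 53 of all 78 members, and the calls went with it. Among members whose 5′ UTR region is under 10 nt the start codon was dominant in 27 of 51 (52.9%), against 43.2% of all such genes. Among those with 10 nt or more it was dominant in 2 of 25 (8.0%), against 10.6%.

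MRPL47 (uL29m) had the highest start codon share, 93.5% of its summed density, from 36 of 61 mRNA counts. MRPS31 followed with 85.3% (96 of 187 counts), then MRPS30 with 79.7% (23 of 94). MRPS30 carries an MRPS name but sits in the large subunit. In GM01953 the start codon held 3 of the 5 mRNA counts of MRPL47 and 4 of the 14 of MRPS30, which is too few to compare.

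The members with a dominant 5′ UTR were MRPL48 (57.6%, 8 counts in 48 nt), MRPS12 (56.2%, 12 counts in 24 nt), MRPS16 (53.8%, 83 counts in 112 nt) and MRPL3 (51.2%, 51 counts in 100 nt). MRPS12 is uS12m of the decoding centre and MRPL3 is uL3m, which reaches the peptidyl transferase centre. The first pair rests on few counts. MRPS16 had 10 of its 23 GM01953 counts in the 5′ UTR as well, whereas MRPL3 had 1 of 9 there.

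The stop codon was dominant in MRPL52 (58.5%, 46 of 99 counts), MRPS18C (57.8%, 43 of 76) and MRPL22 (50.9%, 25 of 97). MRPL52 also had 5 of 9 GM01953 counts at the stop codon, MRPL22 had 3 of 7 and MRPS18C had 1 count in all, at the start codon. The highest CDS shares, in MRPL57 (46.0%), MRPS11 (37.4%) and MRPL28 (33.0%), did not reach 50%. Nor did the highest 3′ UTR shares, in MRPL34 (44.3%), MRPL33 (42.3%) and MRPL18 (30.9%).

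**Figure D2:**
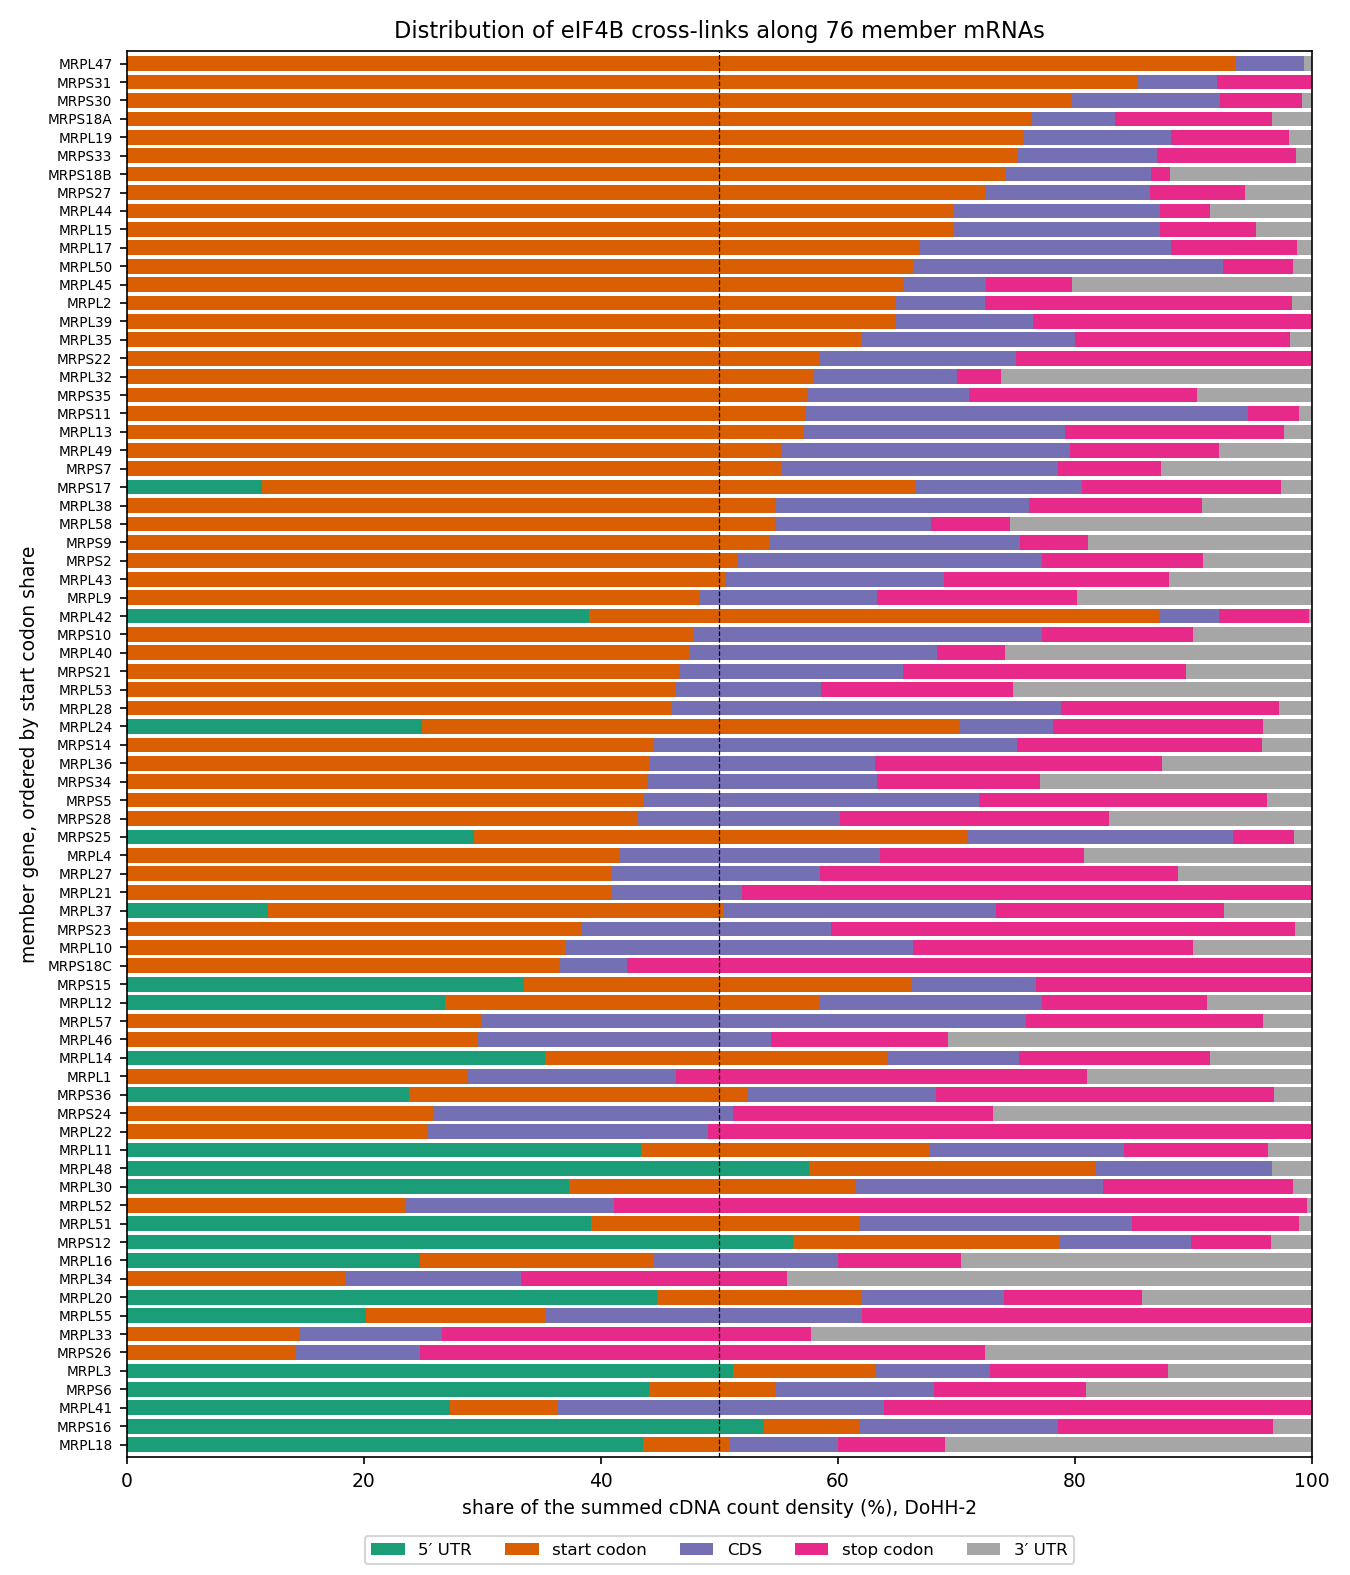
Share of the summed cDNA count density in DoHH-2 (x axis, percent) held by each mRNA region (colours) for the 76 members with more than 20 mRNA counts (y axis, ordered by the start codon share). The dashed line marks 50%. Start codon bars pass the line in 29 members, from MRPL47 at 93.5% downwards, and most members without a green segment have a 5′ UTR region too short for a density.

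MRPS31 and MRPS26, small subunit proteins without a bacterial counterpart, were detected in DoHH-2 and had no count in GM01953. MRPS31 had 212 counts at 139 positions in DoHH-2 and none in GM01953. At the same CPM, 17.4 counts would be found in GM01953. Against a floor of 3 counts in GM01953 the fold is 5.81, and the exact conditional 95% interval of the ratio starts at 4.69. Its DoHH-2 counts were not piled on 1 position, since the highest position held 10 counts (4.7%), but 96 of them fell within 50 nt of the start codon. For MRPS31, 5 pseudogenes of that symbol are annotated, and their part in the difference was not tested. MRPS26 had 68 counts in DoHH-2, and 5.59 would be found in GM01953 at the same CPM. The fold over the floor is 1.86, and the interval starts at 1.48.

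A 2-fold difference was looked for among genes with a mean of at least 60 CPM over both lines, 3339 protein-coding genes with 36 members among them. At least 2-fold higher in DoHH-2 were 3 members (8.33%), against 16.5% of all genes. At least 2-fold higher in GM01953 were 5 (13.9%), against 18% of all genes. With this few members the shares do not set them apart from other genes. The limit on the mean also lets a gene in through the line where it is high, and 6 of these 8 members, all but MRPS6 and MRPS28, were under 60 CPM in the other line, so the counts support nothing on their own.

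The members higher in DoHH-2 were MRPS25 (229 and 7 counts, ratio 2.69, exact 95% interval 1.28 to 6.77), MRPL16 (181 and 6, 2.48, 1.12 to 6.85) and MRPL3 (235 and 9, 2.15, 1.11 to 4.75). MRPL16 is uL16m of the large subunit. These ratios rest on 6 to 9 counts in GM01953, and their intervals reach close to 1. Of the MRPS25 counts in DoHH-2, 61 lay off its mRNA.

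The members higher in GM01953 were MRPL48 (59 and 16 counts, ratio 0.303), MRPS11 (69 and 15, 0.378), MRPS28 (147 and 31, 0.390), MRPL24 (76 and 15, 0.417) and MRPS6 (165 and 29, 0.468). MRPS28 (bS1m) and MRPS11 (uS11m) are small subunit proteins and MRPL24 is uL24m. A single position carried much of the GM01953 count in some of them. In MRPS28 it was 27 of 31 counts, at a 3′ UTR base 702 nt after the A of the start codon where DoHH-2 had 2, and only 3 positions of this gene had a count in GM01953. In MRPL24 it was 10 of 15 counts, 14 nt before the start codon. In MRPS6 the highest position held 2 counts, but 19 of 29 lay off its mRNA.

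**Figure D3:**
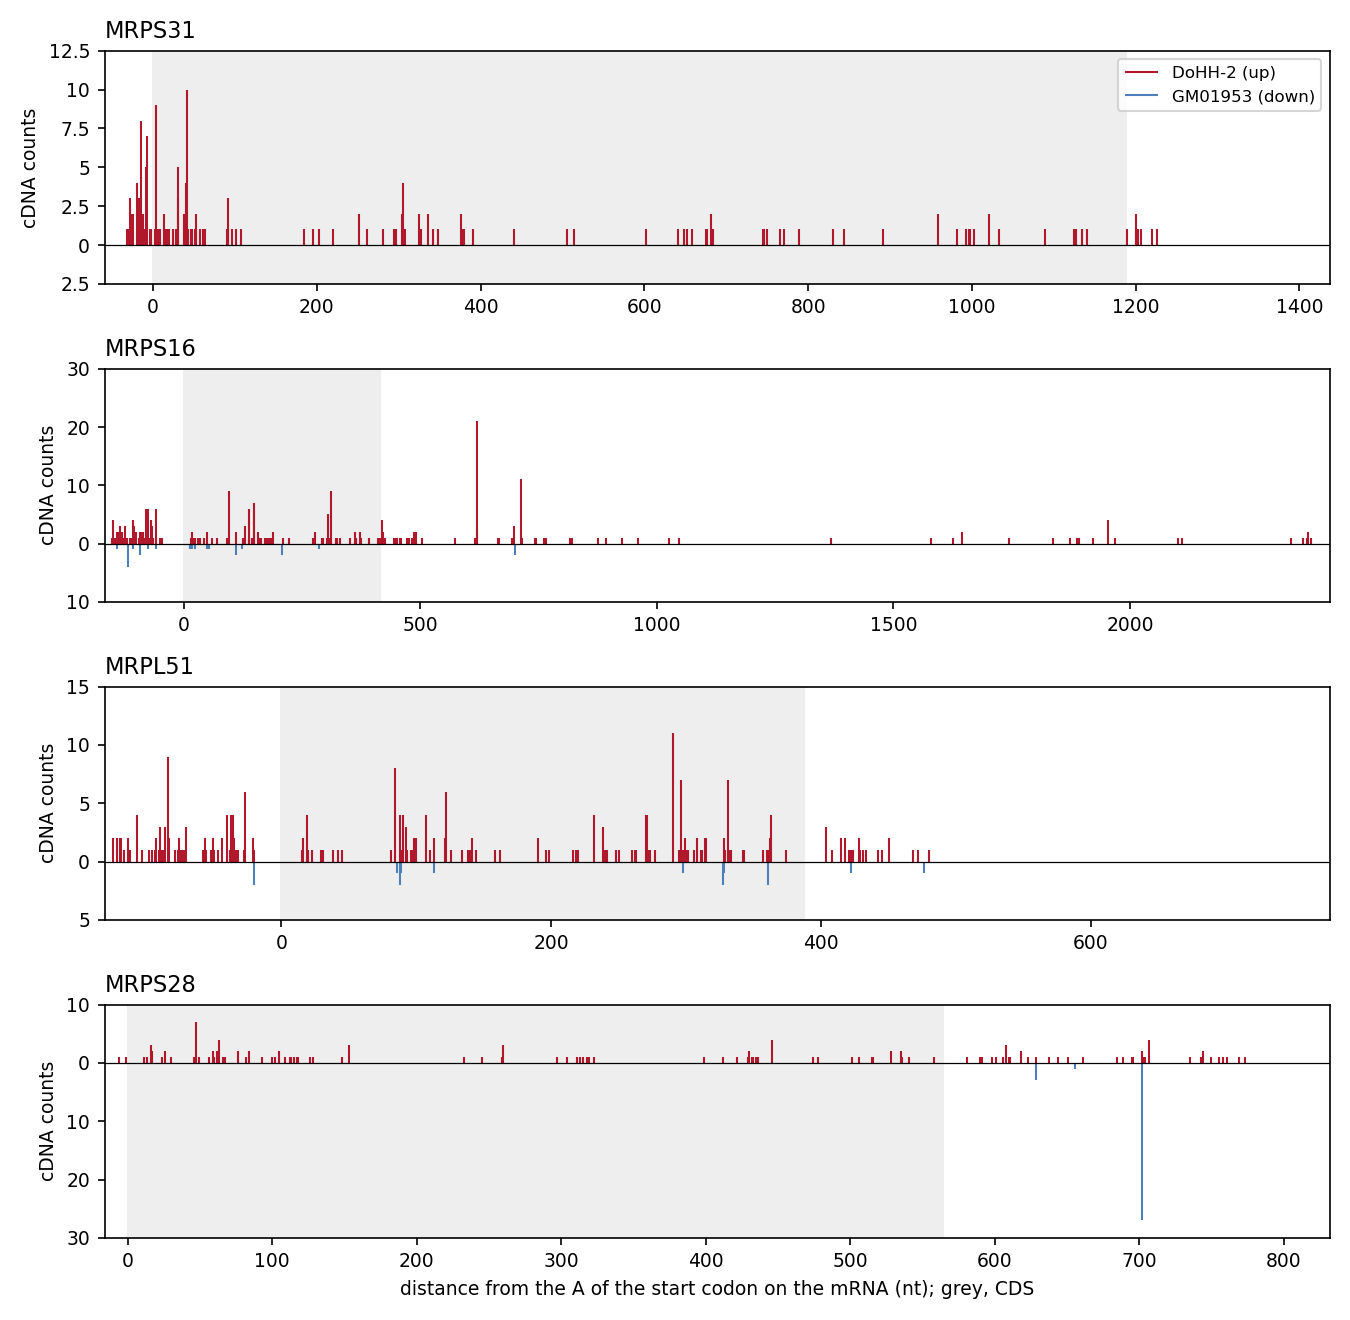
cDNA counts at each position (y axis, DoHH-2 upwards in red, GM01953 downwards in blue, not scaled to depth) along the mRNAs of MRPS31, MRPS16, MRPL51 and MRPS28, by distance from the A of the start codon in nt (x axis), with the CDS in grey. MRPS31 has counts crowded around the start codon in DoHH-2 and none in GM01953, MRPS16 has its highest position (21 counts) in the 3′ UTR, and MRPS28 has 27 counts at 1 GM01953 position.

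The highest position of a member held a median of 6.22% of its counts in DoHH-2. Of the members' positions 80.4% had 1 count, against 83.9% of all positions. In GM01953 the highest position held a median of 35.5%, and at least 50% in 18 of 76 members. In DoHH-2 the highest position of a member lay in the CDS in 41 members, at the start codon in 18, in the 3′ UTR in 9, at the stop codon in 8 and in the 5′ UTR in 2.

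The sequences around the highest positions in DoHH-2 are shown to let the bases at the cross-link be read. Each is 30 nt of the mRNA, 5′ to 3′ in GENCODE release 44 sequence, with the listed base in capitals. The MRPL34 window (chr19:17306701-17306730, plus strand) and the MRPS16 window (chr10:73250632-73250661, minus strand) are in the 3′ UTR. They hold 25 and 21 counts at the capital, 15.6% and 7.42% of the counts of these genes, and GM01953 has none at the same bases. The other 2 windows beyond the stop codon region are from MRPS18B (chr6:30626318-30626347, plus strand, 14 counts) and MRPL18 (chr6:159798233-159798262, plus strand, 12 counts).
MRPL34: ttcttctgtaaatatTtcagaatgtatctc
MRPS16: gtactaattagctttTttcgactttgtctt
MRPS18B: tgggctaaacattgtTgccgtttcatactt
MRPL18: tgttgcagtggaataTtatttgtagttaag

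All 4 have T at the listed base, but of the 30 highest positions of the members in DoHH-2 T was listed at 15, C at 10, G at 4 and A at 1. Other high positions were in MRPS2 (uS2m, chr9:135501040-135501069, plus strand, 16 counts) and MRPS35 (chr12:27755189-27755218, plus strand, 14 counts), both in the CDS. In MRPL36 (bL36m, chr5:1798587-1798616, minus strand, 12 counts) a position 25 nt after the first base of the stop codon, past the end of the CDS, shared the lead with one in the CDS. MRPS2 and MRPL36 have C at the listed base and MRPS35 has T. MRPL21 (13 counts) is not shown because its window crosses an exon junction.
MRPS2: cgaccccccggcctgCtcggccgagccgca
MRPS35: agaatgggaaaaaagTaagactgaagcaga
MRPL36: ccctccagagtcacgCacatactcgtcatc

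Next came 5 members with 11 counts at their highest position, MRPL51, MRPL52, MRPS34, MRPS21 and MRPS33. Of these, MRPS33 is shown because its position lies 11 nt after the A of the start codon (chr7:141010608-141010637, minus strand) and the ATG of the start codon is within the window. MRPS31 is shown with it for its start codon share. Its highest position lies 41 nt after the A (chr13:40771081-40771110, minus strand, 10 counts).
MRPS33: agaaatgtcctccctTtcagaatatgcctt
MRPS31: acctcttcgccccctTtcccgccacccttt

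In both, the listed base lies in a short run of T after a run of C. In GM01953 the highest positions after that of MRPS28 were in MRPS22 and MRPL24. MRPS22 had 13 of its 14 counts at a CDS base (chr3:139348176-139348205, plus strand) with no DoHH-2 count at that base and 3 within 15 nt. MRPL24 had 10 counts (chr1:156738704-156738733, minus strand), and DoHH-2 had 1 at the same base and 13 within 15 nt.
MRPS22: ttgaggcagctaaagTacgattaaaaatgc
MRPL24: ggcaaagggatttctTacaacctccaggca

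Positions with at least 3 counts in both lines were found in 6 members. They were in MRPL4 (3 counts in DoHH-2, 9 in GM01953), MRPS23 (4 and 7), MRPL33 (3 and 5), MRPS21 (5 and 3), MRPL28 (3 and 3) and MRPL22 (3 and 3). No share of other genes at this limit is given, so 6 members cannot be read as many or few. The first 3 of them are shown, since they have the most GM01953 counts among these 6. MRPL4 (uL4m) is 18 nt before the start codon (chr19:10252221-10252250, plus strand), MRPS23 in the CDS (chr17:57849338-57849367, minus strand) and MRPL33 (bL33m) at the stop codon (chr2:27779463-27779492, plus strand).
MRPL4: ttgacctcccgcggcGtgggaggctgcgcg
MRPS23: ctgtggtttgacgtaTatgacgcctttccc
MRPL33: aaaaaatacgctcccTttaaacggtggatt

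Of the 799 GM01953 counts of the members, 44.6% (Wilson interval 41.1 to 48.0%) lay at a base that also had a DoHH-2 count, against 35.7% for other protein-coding genes. The members also had more DoHH-2 counts per kb than other genes, and the part of this in the difference was not tested.

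Over all mRNA counts of the members, the listed base was T in 38.2% in DoHH-2 and 44.4% in GM01953, while T makes up 27.1% and 27.2% of the same mRNAs. The next base was T in 40.9% and 44.6%, and the base before in 38.7% and 37.8%. A was at the listed base in 9.67% and 7.36%, against 27.1% and 27.0% of the mRNAs. Other genes had T at the listed base in 44.3% and 40.1%. UVC is known to cross-link uridine more readily than the other bases. Within the CDS the members' DoHH-2 counts were spread over the first, second and last base of the codon as 34.5%, 31.0% and 34.5%.

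Other genes of mitochondrial translation have no MRP name. Of a list of 35, 23 passed the limit for bound genes in DoHH-2 and LRPPRC alone passed it in GM01953, against the 32.9% and 8.35% of all genes given above. LRPPRC (969 counts in DoHH-2, 31 in GM01953) and SLIRP (340 and 18) form the complex that keeps mitochondrial mRNAs stable. TUFM, the elongation factor that brings tRNAs to the mitochondrial ribosome, had 422 and 21 counts. The ribosomal proteins of this list were CHCHD1 (252 and 6), DAP3 (240 and 4), GADD45GIP1 (197 and 11), PTCD3 (131 and 4) and AURKAIP1 (95 and 12). These 5 had from 13.3 (PTCD3) to 293 (CHCHD1) counts per kb in DoHH-2, with a median of 108. The median was 121 for the 3 insertion and mRNA factors, 35.2 for the 10 translation factors and 19.2 for the 17 assembly and rRNA factors. The start codon was dominant in 12 of the 33 genes of the list with more than 20 mRNA counts, against 18.3% of all genes. Over all genes this share was 43.2% where the 5′ UTR region is under 10 nt and 10.6% elsewhere. The list was not split in this way.

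By name, the subunits differed in some regions. In DoHH-2 the start codon held 18.6% of the mRNA counts of MRPL members (Wilson interval 17.5 to 19.7%) and 18.8% of those of MRPS members (17.5 to 20.1%). The 5′ UTR held 6.01% (5.39 to 6.71%) and 4.28% (3.65 to 5.01%), and the 3′ UTR 19.5% (18.4 to 20.6%) and 23.1% (21.8 to 24.6%). In GM01953 the start codon held 23.9% and 22.3%, the stop codon 12.8% and 2.95% (53 and 9 counts), the 5′ UTR 1.20% and 5.57% (5 and 17 counts) and the 3′ UTR 15.7% and 26.2%. Without MRPS28, whose counts lie mostly at 1 position, the MRPS share in the GM01953 3′ UTR was 17.9% and that at the stop codon 3.28%. The 5′ UTR thus had the larger share in MRPL members in DoHH-2 and in MRPS members in GM01953. Of the 17 MRPS counts there in GM01953, MRPS16 had 10 and MRPS6 had 4, and only 4 MRPS members had any. In DoHH-2 MRPS16 had 83 of the 145 MRPS counts in the 5′ UTR, so these shares rest largely on 1 member.

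The median was 75.5 counts per kb in DoHH-2 for MRPL and 63.0 for MRPS members. Without MRPS30 and MRPS18A, which sit in the large subunit, and MRPS36 the MRPS median was 84.1, so the order turns. With all names kept, the summed counts per kb were higher for MRPS members, at 61.0 against 56.6 in DoHH-2 and 5.49 against 4.74 in GM01953. So was the median count per member, at 143 against 102 in DoHH-2 and 11 against 8 in GM01953. The order thus depends on the measure. Members with a bacterial counterpart had a median of 91.9 counts per kb and those without one 62.3, with quartiles of 42.5 to 137 and 30.5 to 89.6. In GM01953 the corresponding medians were 6.81 and 4.03.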

How the data were processed

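Cross-link positions of eIF4B iCLIP were analysed from 2 deposited tables, 1 per cell line. The authors removed PCR duplicates, mapped the reads to GRCh38 with HISAT2 (version not stated), pooled the replicates and used iCount to make the cDNA counts per position, which are whole numbers without normalization. The FDR, a p-value adjusted by iCount from permutations within a gene, was also deposited by the authors. The annotation release they used is not given in the sources used here. Counts were summed per gene over unique positions, with each table's own total for CPM, counts per 1000000. Deposited positions count from 0, as judged from the edges of genes, and 1 was added. Positions were placed on MANE Select transcripts of GENCODE release 44. Regions were 50 nt to each side of the start and stop codons, and the rest of the UTRs and CDS. Wilson, exact Poisson and exact conditional 95% intervals came from scipy 1.17.1 (python 3.11.15, pandas 2.3.3). The placement was tested on simulated positions made with the same annotation and the same count from 0. That checks the code only and neither the count from 0 nor the annotation release. No test between cell lines was possible.

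The members and gene lists were chosen with earlier results of these data known, and the split by bacterial counterpart after the values were seen. Named genes are the 10 highest members in each line, the 10 with the highest position in DoHH-2, the 3 with the highest density share per region, all past 2-fold, all without a count and the 3 lowest. MRPS22, MRPS23 and the members listed for shared positions or for counts off the mRNA were named after their values were seen. Alternatives changed the FDR limit, the weight of a position, the denominator, the transcript, the codon window and the cut-offs.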

Additional observations from a re-analysis of the deposited data

How the results depend on the processing

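No paired analysis was possible because the replicates of each cell line were pooled before deposit, and no replicate could be left out. Of 118 alternative values, 66 stayed within the counting interval, or within 1.5 times for a number of genes, and 52 moved. The ratio of the members between the lines stayed within its interval in each of its 6 alternatives (0.948 to 1.03). With positions of FDR below 0.05, the share of all counts became 0.495% in DoHH-2, the share on the mRNA 96.4%, the start codon share 24.4%, the 3′ UTR share 17.9%, and the CDS and 3′ UTR became dominant in 2 and 1 members. With each position counted once, the share of all counts became 0.570% in DoHH-2 and 0.552% in GM01953, the start codon share in DoHH-2 17.3% and the 3′ UTR share 22.2% and 17.1%. Without positions shared with another gene, the share of all counts was 0.409% and 0.429%. Over counts in protein-coding genes without histone genes it was 0.662% and 0.699%, and 5 and 8 of 54 members passed 2-fold (9.26% and 14.8%, against 17.9% and 19.3% of all genes). Exons of all coding transcripts held 91.4% and 92.5%. Codon regions of 25 nt gave 11.7% and 11.1% at the start codon and 23.6% in the DoHH-2 3′ UTR. They also raised the 5′ UTR share to 7.47% and 6.11%. The longest coding transcript gave 19.6% at the start codon in DoHH-2 and 8.01% and 5.07% in the 5′ UTR. A limit of 50 counts left 32 bound members in DoHH-2 and 0 in GM01953, and a single position with FDR below 0.05 sufficed for 56 in GM01953. A limit of 70% left 8 members with a dominant start codon and 0 with a dominant 5′ UTR or stop codon. For bound and dominant calls under changed limits no share of all genes is given, so these numbers cannot be set against other genes. A mean of 120 CPM left 6 members, of which 0 were higher in DoHH-2 and 2 in GM01953, against 14.2% and 15.2% of 1392 genes. These 2 were under 120 CPM in DoHH-2, so they entered through GM01953. Within 1 nt, 59.4% of GM01953 counts had a DoHH-2 position. Of the alternatives added after seeing the data, omitting MRPS28 gave 16.5% in the GM01953 3′ UTR (17.9% for MRPS members), omitting MRPS30, MRPS18A and MRPS36 gave an MRPS median of 84.1 counts per kb, and omitting the codon regions gave 25.7% and 23.3% in the 3′ UTR. Reading positions as counting from 1 moved no region share past its interval, and the bases at the listed positions were not read this way. The causes of these moves were not tested, other than that fewer positions or genes enter under a stricter limit. With 799 counts, the depth of GM01953 limits single members there to differences of several-fold.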
